A study of Mus musculus with 16 samples.

Results

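The 32 genes described here are stimulated by type I interferon, the antiviral cytokines interferon alpha and interferon beta. They were listed by symbol, with earlier results of these data known, and all 32 were found among 55335 gene identifiers in the table of read counts. They were read by sequencing of poly-A RNA from cultured mouse CD8 T cells, which can kill infected cells. CD8 T cells enriched from the spleen of C57BL/6 mice were held in medium with IL-15 at 50 ng/ml on plate-bound anti-CD3e at 1 µg/ml with anti-CD28 at 1 µg/ml. The 4 groups were Batf3 ko cells at 72 h, wt cells at 72 h, Batf3 ko cells at 48 h and wt cells at 48 h, with 4 libraries each and the same IL-15, anti-CD3e and anti-CD28 in every group. The ko cells came from mice without Batf3, a transcription factor with a basic leucine zipper. The libraries within a group are technical replicates according to the series text, and every p-value here therefore rests on the spread among them, which is not that among animals. These are bulk measurements, in which fewer cells of a type and less RNA per cell cannot be told apart.

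Type I interferons bind the receptor chains IFNAR1 and IFNAR2 on nearly all cells. The kinases JAK1 and TYK2 then phosphorylate STAT proteins, which join IRF9 in a complex that enters the nucleus and binds the interferon stimulated response element (ISRE) in target promoters. The induced proteins block viral replication, sense foreign nucleic acid or feed back on the pathway, and in CD8 T cells interferon signals during activation are known to affect expansion and effector function.

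The defining CD8 T cell genes were abundant in every group: the 7 markers looked at (Cd8a, Cd8b1, Cd3d, Cd3e, Cd3g, Cd2 and Lck) summed to 2690 ± 58.7 CPM (a gene's counts as a share of the library's total, scaled to 1000000) in ko cells and 2452 ± 33.8 CPM in wt cells at 72 h, and to 2139 ± 55.6 CPM in ko cells and 2013 ± 35.4 CPM in wt cells at 48 h (SD, n = 4 each). Batf3 itself had 0, 0, 0.366 and 0 CPM in ko cells against 34.2, 31.9, 28.7 and 28.7 CPM in wt cells at 72 h. At 48 h it had 0.0585, 0.0866, 0.180 and 0.189 CPM in ko cells against 83.4, 76.0, 75.8 and 87.7 CPM in wt cells, and every library went with its genotype label. Libraries held 29375818 to 39241169 counts, and a count of 0 allows a level of up to 0.0765 to 0.102 CPM (3 counts, counting error only). Replicate 4 of the ko group at 48 h and replicate 4 of the wt group at 72 h stood apart from their groups over all genes.

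The ISRE lies close to the start of many of these genes, and its core was searched for in the RefSeq promoter windows (build GRCm38.p6) that run from 250 bases before to 50 bases after each annotated start. The core searched was GAAANNGAAA on either strand, that is, also TTTCNNTTTC in the printed orientation. Of the 32 genes 23 had a window, and 13 of these (56.5%) held the core, against 3.99% of 27025 genes and 3.44% of 32851 windows of the same length. The following stretches, printed 5′ to 3′ on each gene's own strand with the cores in capitals, are shown because they belong to the 3 genes higher in ko cells at 72 h, to 5 of the genes lower in ko cells at 72 h, and to Isg15, the gene for the ubiquitin-like modifier of the response.
Ifit1: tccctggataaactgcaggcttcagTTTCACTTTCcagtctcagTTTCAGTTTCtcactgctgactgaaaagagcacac
Ifit3: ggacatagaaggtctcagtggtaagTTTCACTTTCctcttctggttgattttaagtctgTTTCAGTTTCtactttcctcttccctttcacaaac
Rsad2: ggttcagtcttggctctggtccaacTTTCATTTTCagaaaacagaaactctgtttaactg
Oas1a: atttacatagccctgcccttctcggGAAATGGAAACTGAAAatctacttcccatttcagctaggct
Oas3: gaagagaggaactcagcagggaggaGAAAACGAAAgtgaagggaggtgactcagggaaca
Ifih1: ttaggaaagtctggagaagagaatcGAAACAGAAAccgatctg
Ddx58: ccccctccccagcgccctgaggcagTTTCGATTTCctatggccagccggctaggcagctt
Trim30a: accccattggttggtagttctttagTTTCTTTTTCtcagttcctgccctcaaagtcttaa
Isg15: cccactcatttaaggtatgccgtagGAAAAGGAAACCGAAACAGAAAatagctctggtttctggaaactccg

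In GRCm38.p6 these stretches lie at chr19:34640760-34640838 on the plus strand (Ifit1), chr19:34583348-34583441 on the plus strand (Ifit3) and chr12:26456538-26456597 on the minus strand (Rsad2). The others are on the minus strand, at chr5:120907505-120907570 (Oas1a), chr5:120777700-120777759 (Oas3), chr2:62646206-62646248 (Ifih1), chr4:40239789-40239848 (Ddx58), chr7:104465195-104465254 (Trim30a) and chr4:156200850-156200921 (Isg15). Ifit1 and Ifit3 carry 2 cores each, Oas1a 2 overlapping cores and Isg15 3. The stretch printed for Ifit3 and the matching stretch of its neighbour Ifit3b are identical over all 94 bases. A core stood in the windows of genes that rose (3 of 3 with a window), of genes that fell (5 of 6) and of genes that passed the test in neither direction at 72 h (4 of 12), and in 1 of the 2 windows of genes that were not tested. Of the 22 cores found in the 32 genes' windows 1 overlapped a match to TTCNNNGAA, the GAS element of interferon gamma responses, and 0 overlapped a match to TGANTCA, the AP-1 element. The GAS letters were found in 5 of the 23 genes (21.7%) against 9.55% of all genes, and the AP-1 letters in 7 (30.4%) against 8.97%. These are matches of letters and not measured binding.

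Levels of the 32 genes ran over a wide range when expressed as CPM per kilobase of annotated exon. In ko cells at 72 h the highest were Ifi27l2a, which encodes a small mitochondrial protein family member, at 197 ± 55.3 CPM per kb, Bst2 (tetherin, which holds budding virions at the cell surface) at 78.3 ± 5.49, and Ifi35 at 19.4 ± 1.72 (SD, n = 4). The values in wt cells at 72 h were 188 ± 40.9 for Ifi27l2a, 86.6 ± 2.97 for Bst2 and 19.2 ± 1.58 CPM per kb for Ifi35 (SD, n = 4). At the other end stood Ifi44 at 0.00594 ± 0.0119 in ko cells and 0.0242 ± 0.0250 CPM per kb in wt cells, and Oas2 at 0.0205 ± 0.0126 in ko cells and 0.0196 ± 0.0205 CPM per kb in wt cells (SD, n = 4). Ifit3b, Oas2 and Ifi44 were too low for the filter on low counts, with at most 11 reads in any library, and the other 29 genes were tested. Summed over all 32 genes, the level was 449 ± 39.2 CPM in ko cells and 516 ± 34.1 CPM in wt cells at 72 h, and 397 ± 25.2 CPM in ko cells and 407 ± 18.2 CPM in wt cells at 48 h (SD, n = 4 each). The ko and wt libraries overlapped in this sum at both times. It is scaled by library totals alone, where the median log2 fold change (ko over wt) of all genes tested was -0.14 at 72 h.

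**Figure D1:**
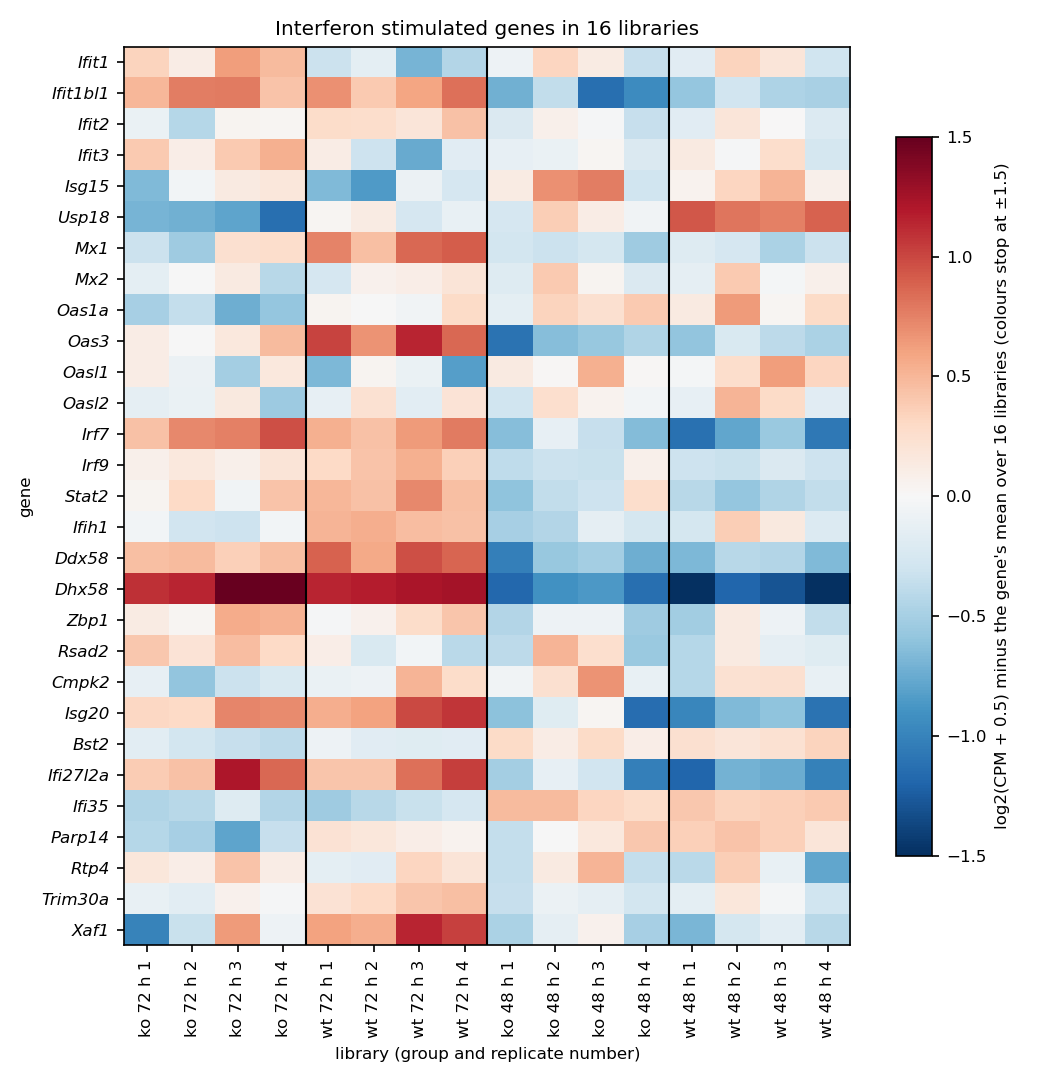
Heat map of the 29 tested interferon stimulated genes (rows) in 16 libraries (columns, 4 per group, with ko left of wt at each time). Colour gives log2(CPM + 0.5) minus the gene's mean over the 16 libraries, red above and blue below it; the Dhx58, Irf7 and Ddx58 rows are red in the 72 h libraries and blue in the 48 h libraries, and the Usp18 row is deepest blue in the ko libraries at 72 h.

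At 72 h the ko and wt cells differed in both directions. Of the 29 tested genes, 3 were higher in ko cells (Ifit1, Ifit3 and Rsad2) and 9 were lower (Usp18, Mx1, Oas1a, Oas3, Ifih1, Ddx58, Parp14, Trim30a and Xaf1), by edgeR's quasi-likelihood test at an adjusted p under 0.05. Of all 15197 genes tested, 16.9% were higher and 19.5% lower in ko cells in that comparison, 36.4% in either direction. The median log2 fold change (ko over wt) was -0.18 over the 29 genes and -0.02 over all genes tested. Where libraries were scaled by their total counts alone, 2 of the 29 were higher and 13 lower, against 9.63% and 31.4% of all genes (41.1% in either direction). The median of all genes then moved to -0.14, against -0.02 with the trimmed-mean (TMM) scaling behind the fold changes given here.

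**Figure D2:**
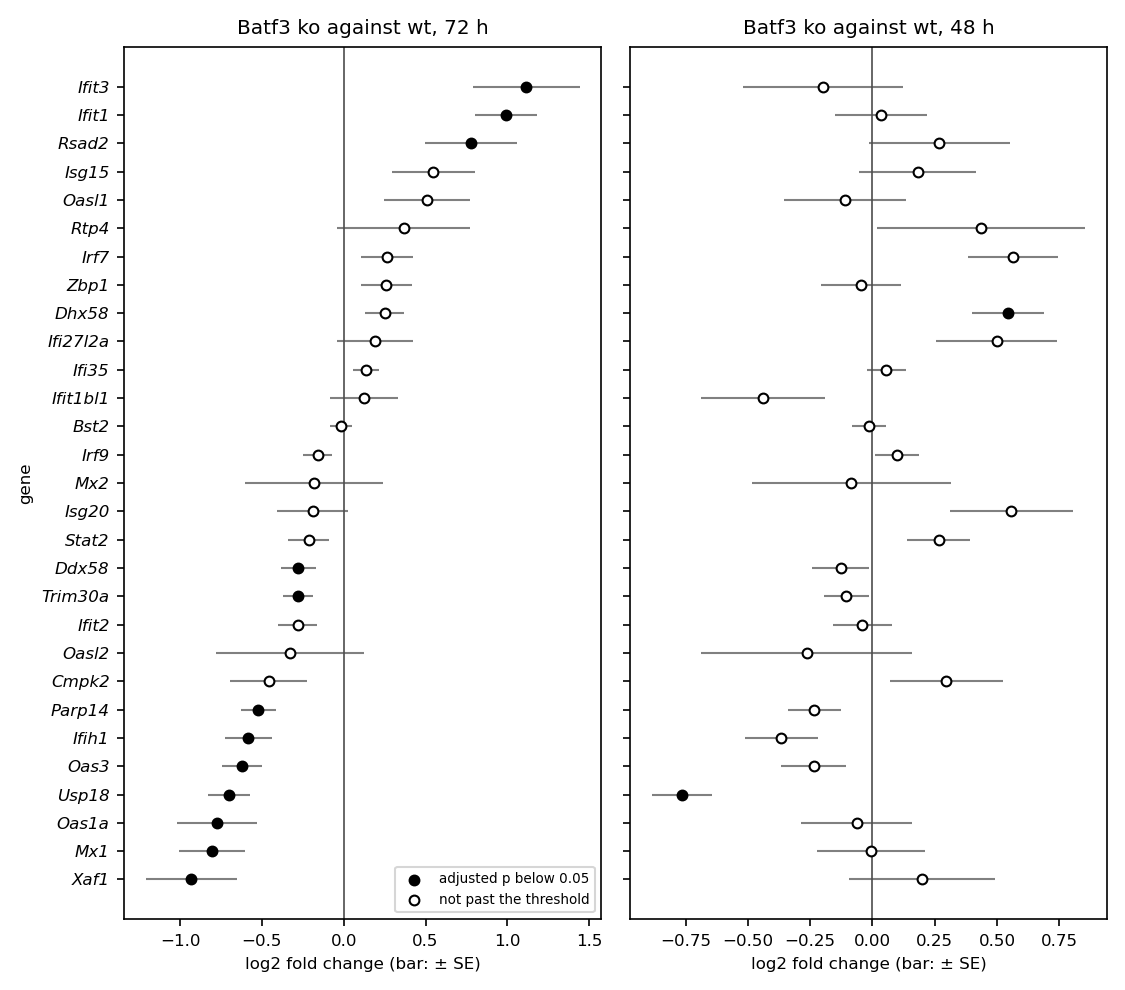
Log2 fold changes of ko over wt with their standard errors (bars) for the 29 tested genes at 72 h (left) and 48 h (right, on its own scale), in the order of the 72 h values. Filled points passed the test at an adjusted p under 0.05: 3 on the right and 9 on the left of 0 at 72 h, and Dhx58 and Usp18 at 48 h.

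The genes that rose belong to the IFIT family, whose proteins bind foreign RNA and block its translation, and to the enzymes that act on nucleotides. Ifit1 (ENSMUSG00000034459, chr19:34640871-34650009 in GRCm38) had 5.59, 4.73, 6.96 and 6.24 CPM in ko cells at 72 h against 3.36, 3.89, 2.49 and 3.07 CPM in wt cells. Every ko library stood above every wt library. The difference came to a log2 fold change of 0.99 (SE 0.19, adjusted p = 0.000237), and it passed the test in all 27 other settings tried. Ifit3 (ENSMUSG00000074896, chr19:34583531-34588731), whose human product is a partner of IFIT1, had 1.13, 0.836, 1.13 and 1.30 CPM in ko cells against 0.849, 0.504, 0.238 and 0.608 CPM in wt cells. The lowest ko library overlapped the highest wt library, and the fitted log2 fold change was 1.12 (SE 0.33, adjusted p = 0.00953). Reads of Ifit3 and its neighbouring copy Ifit3b are uncertain, since 51.2% of the 50-base windows in Ifit3 exons also occur in Ifit3b. Ifit3b had 0.204, 0.259, 0.333 and 0.332 CPM in ko cells against 0.229, 0.0840, 0 and 0.224 CPM in wt cells, which are 3 to 11 reads where any were counted and were not tested.

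Rsad2 (ENSMUSG00000020641, chr12:26442746-26456452) encodes viperin, an enzyme that makes a chain-terminating nucleotide. It had 1.89, 1.59, 2.00 and 1.72 CPM in ko cells at 72 h against 1.44, 1.04, 1.26 and 0.864 CPM in wt cells, with no overlap. That is a log2 fold change of 0.78 (SE 0.28, adjusted p = 0.0334). The Rsad2 call was lost with library-size scaling (adjusted p = 0.0689) and without replicate 1 or 3 of the ko group or replicate 2, 3 or 4 of the wt group at 72 h (adjusted p = 0.0554 to 0.0805). Markers of other cell types moved beside these rises: the 6 NK cell markers summed to 26.2 to 29.9 CPM in ko cells and 14.3 to 17.7 CPM in wt cells at 72 h, with Klre1, Klri2 and Klrb1c higher and the defining gene Ncr1 at 0.252 CPM in ko cells and 0.223 CPM in wt cells on average. Of the 5 NK cell markers tested 3 were higher and 0 lower, against 16.9% and 19.5% of all genes. The 10 macrophage and monocyte markers summed to 8.21 to 12.0 CPM in ko cells and 5.86 to 7.22 CPM in wt cells, nearly all of it Cd68, with Adgre1 at 0 in every library. Only 1 of these 10 was tested, and it was higher in ko cells. The part of these cells in the interferon stimulated genes was not tested.

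**Figure D3:**
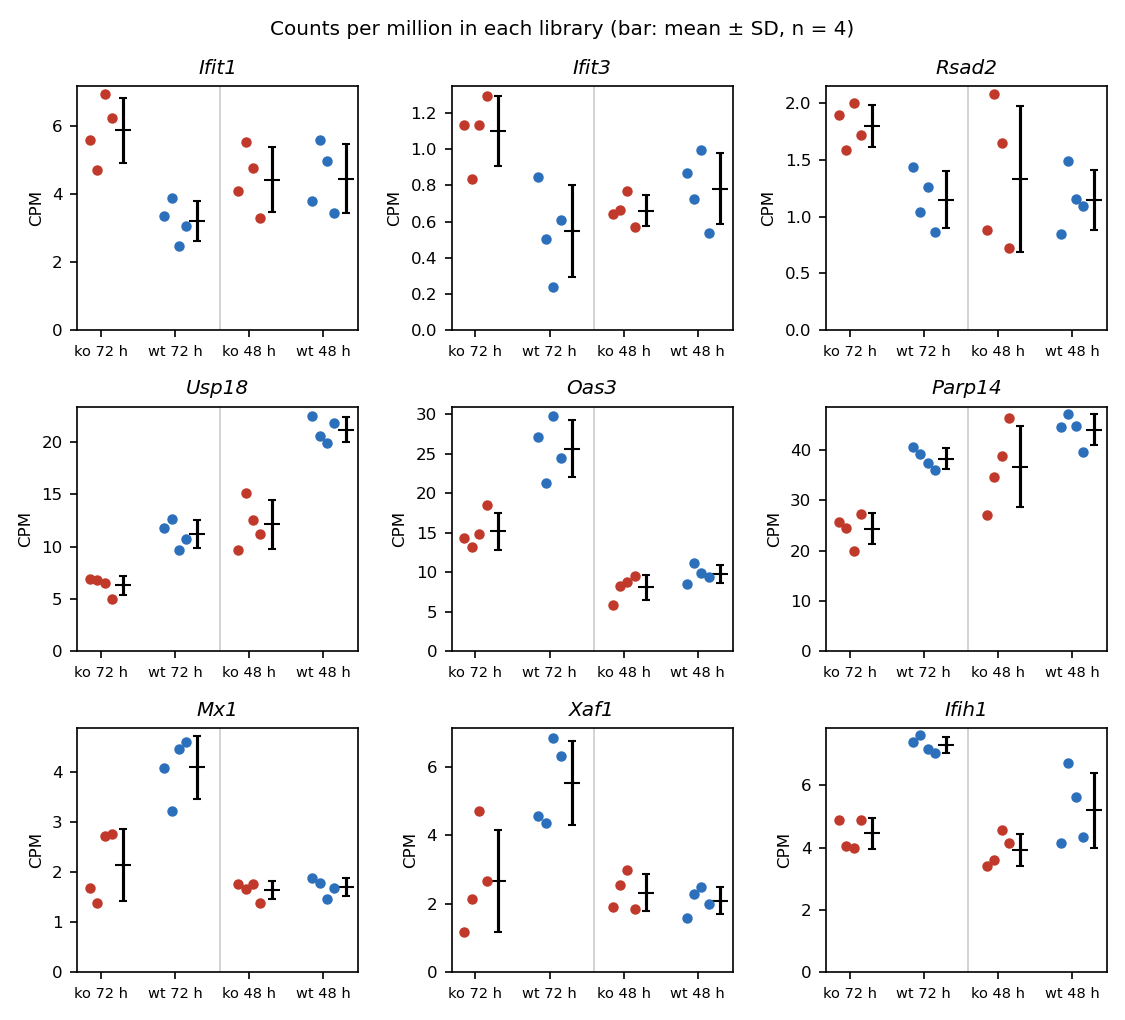
CPM of 9 genes in each library (points; red for ko, blue for wt) with the mean and SD (n = 4) of each group beside them, on axes that start at 0. Ifit1 and Rsad2 sit higher in the ko than in the wt libraries at 72 h and overlap at 48 h, while Usp18 sits lower in the ko libraries at both times.

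Among the 9 genes that fell at 72 h, Usp18 (ENSMUSG00000030107, chr6:121245906-121270917) encodes the protease that removes ISG15 from proteins and also damps signalling at IFNAR2. It had 6.96, 6.83, 6.49 and 5.003 CPM in ko cells against 11.8, 12.6, 9.67 and 10.7 CPM in wt cells. The groups did not overlap, and the log2 fold change was -0.70 (SE 0.13, adjusted p = 0.000179). Mx1 (ENSMUSG00000000386, chr16:97447035-97462907) encodes a GTPase that restricts influenza viruses, and C57BL/6 mice are known to carry a defective allele of it. Its levels were 1.69, 1.38, 2.73 and 2.77 CPM in ko cells against 4.08, 3.22, 4.46 and 4.61 CPM in wt cells. All ko libraries lay below all wt libraries, with a log2 fold change of -0.81 (SE 0.20, adjusted p = 0.00297).

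The oligoadenylate synthetases make a second messenger from ATP when they bind double-stranded RNA, and 2 of the 4 tested OAS family genes fell, against 19.5% of all genes. Oas3 (ENSMUSG00000032661, chr5:120753098-120777661) had 14.3, 13.2, 14.9 and 18.6 CPM in ko cells at 72 h against 27.2, 21.3, 29.8 and 24.5 CPM in wt cells, and the groups did not overlap. This was a log2 fold change of -0.62 (SE 0.12, adjusted p = 0.000337). Oas1a (ENSMUSG00000052776, chr5:120896256-120907521) had 0.786, 0.922, 0.599 and 0.723 CPM in ko cells against 1.37, 1.32, 1.26 and 1.73 CPM in wt cells, again without overlap. Oas1a thus fell by 0.77 on the log2 scale (SE 0.25, adjusted p = 0.0159), lost without replicate 3 of the ko group (adjusted p = 0.0554), without replicate 4 of the wt group (adjusted p = 0.0545) and when both libraries named above as apart were omitted (adjusted p = 0.0552). Of the 50-base windows in Oas1a exons 57.6% also occur in other genes, chiefly Oas1g and Oas1b, so its reads are uncertain.

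Among the sensors of foreign RNA, Ifih1 (ENSMUSG00000026896, chr2:62595798-62646255), which encodes the long double-stranded RNA sensor MDA5, had 4.89, 4.06, 3.996 and 4.88 CPM in ko cells at 72 h against 7.38, 7.62, 7.15 and 7.04 CPM in wt cells. The ko libraries were all lower, and the log2 fold change was -0.58 (SE 0.15, adjusted p = 0.00285). Ddx58 (ENSMUSG00000040296, chr4:40203773-40239828), the gene for the RNA sensor RIG-I, had 16.2, 16.5, 15.1 and 16.2 CPM in ko cells against 22.01, 17.6, 23.3 and 21.9 CPM in wt cells, without overlap on CPM but with overlap after TMM scaling. It had a log2 fold change of -0.28 (SE 0.11, adjusted p = 0.0414). The Ddx58 call was lost in 11 of 27 settings. These were the fits without any of the 4 ko libraries or wt replicates 1, 3 and 4 at 72 h, or without ko replicate 2 at 48 h (adjusted p = 0.0502 to 0.115), without both of the libraries apart (0.0681), with the replicate block (0.0503) and with offsets for exon length (-0.17, adjusted p = 0.215).

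The remaining genes that fell have varied roles. Parp14 (ENSMUSG00000034422, chr16:35832874-35871544) encodes a mono-ADP-ribosyltransferase and had 25.6, 24.5, 19.9 and 27.3 CPM in ko cells at 72 h against 40.6, 39.1, 37.3 and 36.0 CPM in wt cells. The groups lay far apart, with a log2 fold change of -0.52 (SE 0.11, adjusted p = 0.000615). Trim30a (ENSMUSG00000030921, chr7:104409025-104465193), of the TRIM ubiquitin ligase family, had 36.9, 35.6, 41.9 and 39.4 CPM in ko cells against 46.3, 49.0, 53.4 and 54.7 CPM in wt cells, likewise without overlap on CPM only. Its log2 fold change of -0.28 (SE 0.09, adjusted p = 0.0183) no longer passed without replicate 1 or 2 of the ko group or replicate 4 of the wt group (adjusted p = 0.0511 to 0.0663). Xaf1 (ENSMUSG00000040483, chr11:72301629-72313733), whose product binds the apoptosis inhibitor XIAP, had 1.16, 2.13, 4.70 and 2.65 CPM in ko cells against 4.57, 4.37, 6.84 and 6.30 CPM in wt cells. Replicate 3 of the ko group overlapped the lower wt libraries, and the log2 fold change was -0.93 (SE 0.28, adjusted p = 0.0116).

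The log2 fold changes of all genes ran lower with longer annotated exons at 72 h (Spearman's rho = -0.35 over 9283 genes, a description). Over the same genes rho was -0.40 at 48 h and -0.16 for the genotype effect at 72 h against 48 h. The genes that fell at 72 h included the longest of the set, Parp14 with 9306, Ifih1 with 8165, Oas3 with 7069 and Ddx58 with 7050 bases of exon. They also included Oas1a with 1885, Usp18 with 2790, Mx1 with 3785, Trim30a with 4111 and Xaf1 with 4689 bases. Those that rose were Ifit3 with 1745, Ifit1 with 2656 and Rsad2 with 4335 bases. With offsets for a length trend in each library, 3 of the 29 genes were higher and 9 lower at 72 h, against 16.2% and 17.2% of all genes (33.4% in either direction). Ddx58 no longer passed and Bst2 did, with a log2 fold change of -0.22 (adjusted p = 0.016).

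The 17 other genes did not pass the test at 72 h. Among the transcription factors, Stat2 stood at a log2 fold change of -0.22, Irf9 at -0.16 and Irf7, which drives the interferon alpha genes, at 0.26. Isg15 stood at 0.55 with 2.62, 4.30, 4.90 and 5.03 CPM in ko cells against 2.61, 2.24, 4.12 and 3.65 CPM in wt cells, which overlap (adjusted p = 0.0989). Ifit2 stood at -0.28 with 15.3, 12.0, 17.0 and 16.8 CPM in ko cells against 20.1, 19.8, 18.7 and 22.4 CPM in wt cells, which do not overlap on this scale (adjusted p = 0.0694). Isg15 passed without ko replicate 1 at 72 h (adjusted p = 0.0284) or ko replicate 4 at 48 h (0.0448). Ifit2 passed without ko replicate 4 at 48 h (0.0422) or with library-size scaling (0.00653). Oasl1 passed without wt replicate 2 at 72 h (0.0458). With no filter Isg15 (0.00697) and Ifit2 (0.0204) passed, and Dhx58 did in a fit of only the 72 h groups (0.0424). The values were 0.51 for Oasl1, which in mice holds down Irf7 translation, 0.37 for the chaperone gene Rtp4, 0.26 for the Z-form nucleic acid sensor gene Zbp1, 0.25 for Dhx58, 0.19 for Ifi27l2a, 0.14 for Ifi35 and 0.13 for Ifit1bl1. They were -0.02 for Bst2, -0.18 for Mx2, -0.19 for the exonuclease gene Isg20, -0.33 for Oasl2 and -0.46 for the mitochondrial nucleotide kinase gene Cmpk2. On CPM the groups did not overlap for 2 genes higher and 12 lower of the 29 (8.34% and 26.8% of all genes tested, 35.1% either way), and after TMM scaling for 3 higher and 6 lower (14.7% and 17.2% of all genes, 31.9% either way).

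At 48 h only a pair of the 29 genes passed the test, with Dhx58 higher and Usp18 lower in ko cells, against 4.41% of all genes higher, 2.66% lower and 7.07% in either direction. The median log2 fold change was -0.01 over the 29 genes and 0.01 over all genes. Usp18 had 9.66, 15.1, 12.5 and 11.2 CPM in ko cells against 22.5, 20.5, 19.9 and 21.8 CPM in wt cells, well apart. It had a log2 fold change of -0.77 (SE 0.12, adjusted p = 0.000212), with adjusted p from 1.04e-10 to 0.00145 over 27 other settings. Dhx58 (ENSMUSG00000017830, chr11:100694884-100704271) encodes LGP2, a regulator of the RNA sensors RIG-I and MDA5, and had 4.42, 5.45, 5.65 and 4.58 CPM in ko cells against 2.99, 4.40, 4.06 and 2.75 CPM in wt cells. The groups were separate by a narrow margin, with a log2 fold change of 0.55 (SE 0.15, adjusted p = 0.0225).

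The Dhx58 call at 48 h was lost with limma-voom (adjusted p = 0.0573), in a fit of only the 48 h groups (0.0536) and without replicate 2 or 3 of the ko group or replicate 1 or 4 of the wt group (0.0670 to 0.0962), which left 0 of the 29 genes higher. In these fits 302 to 698 of the 14302 to 15455 genes tested were higher. Without replicate 4 of the ko group at 48 h, Irf7 (adjusted p = 0.0210) and Isg20 (0.0175) were also higher and Parp14 was lower (0.0232). Over all genes 1059 of 15406 were higher and 896 lower in that fit, against 670 and 405 of 15197 in the main fit. Irf7 also passed without wt replicate 3 at 48 h (0.0257) or wt replicate 4 at 72 h (0.0442). Irf7 itself had 2.63, 3.95, 3.32 and 2.59 CPM in ko cells against 1.74, 2.33, 2.80 and 1.81 CPM in wt cells at 48 h, which overlap, and a log2 fold change of 0.56 (SE 0.18, adjusted p = 0.0594). On CPM the groups were separate for 1 gene higher and 1 lower of the 29, against 5.69% and 8.76% of all genes tested. The NK cell markers summed to 11.7 to 15.2 CPM in ko cells and 6.16 to 7.03 CPM in wt cells at 48 h, and their part in these values was not tested. Of the 5 NK cell markers tested 3 were higher and 0 lower at 48 h, against 4.41% and 2.66% of all genes.

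Most of the genes that changed at 72 h passed no test at 48 h. Of all genes tested 36.4% passed in either direction at 72 h and 7.07% at 48 h. Ifit1 had 4.10, 5.54, 4.78 and 3.31 CPM in ko cells against 3.81, 5.61, 4.98 and 3.44 CPM in wt cells, with nearly the same spread of values in both groups, and a log2 fold change of 0.04. Ifit3 stood at -0.20, Rsad2 at 0.27, Mx1 at -0.01, Oas1a at -0.06, Oas3 at -0.23 and Ifih1 at -0.37. Ddx58 stood at -0.13, Parp14 at -0.23, Trim30a at -0.10 and Xaf1 at 0.20, and none of these passed the test at 48 h.

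Whether the genotype effect differed between the times was tested as an interaction, (ko over wt at 72 h) minus (ko over wt at 48 h). Ifit1 passed it, with a difference of 0.96 on the log2 scale (SE 0.26, adjusted p = 0.0329): 1 of 29 genes was higher, against 2.08% of all genes, and 0 were lower, against 3.53% (5.61% in either direction). By DESeq2 and by limma-voom 0 of the 29 were lower as well, against 699 of 13001 and 512 of 15197 genes. At an unadjusted p under 0.05 in edgeR 2 were higher and 8 lower, and all genes were not counted at that threshold. The Ifit1 call did not hold with both of the libraries apart left out (adjusted p = 0.0504), nor without replicate 3 or 4 of the ko group at 48 h, 2 or 3 of the wt group at 48 h, 3 or 4 of the ko group at 72 h or 3 of the wt group at 72 h (adjusted p = 0.0507 to 0.0854). Xaf1 stood at -1.13 (SE 0.40, adjusted p = 0.103) and passed without ko replicate 3 at 72 h (adjusted p = 0.0125). Stat2 stood at -0.48 and passed without ko replicate 1 at 48 h (0.0391), and Isg20 at -0.75 and passed without ko replicate 4 at 48 h (0.0360). Of the 29 differences 9 were above and 20 below 0, with a median of -0.17, against -0.04 over all genes. Of all 15197 genes 6706 were above and 8491 below 0.

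More of these genes differed between the times than between the genotypes, as was so for all genes. In ko cells 13 of the 29 were higher and 6 lower at 72 h than at 48 h, against 34.4% and 33.6% of all genes (68.0% in either direction), and the median log2 fold change was 0.34, against 0.03 over all genes. In wt cells 15 were higher and 6 lower, against 33.6% and 29.9% of all genes (63.6%), with a median of 0.37, against 0.05 over all genes. These comparisons share libraries with those between the genotypes, so their values are given side by side only. The times did not overlap on CPM for 9 genes higher and 5 lower in ko cells (25.9% and 32.8% of all genes, 58.6% either way) and for 14 higher and 4 lower in wt cells (30.8% and 26.8%, 57.7% either way).

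**Figure D4:**
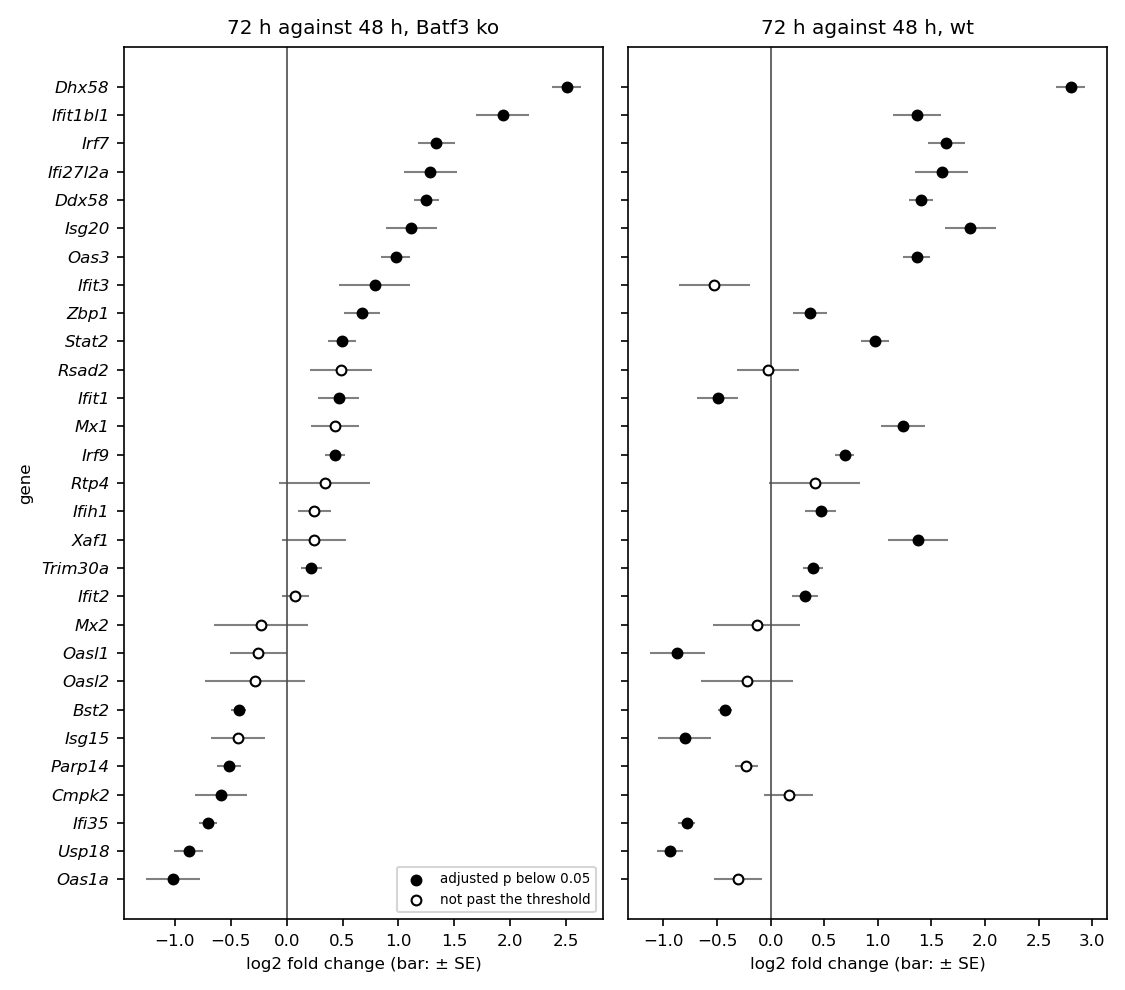
Log2 fold changes of 72 h over 48 h with their standard errors (bars) for the 29 tested genes in ko cells (left) and wt cells (right, on its own scale), in the order of the ko values. Filled points passed the test at an adjusted p under 0.05; Dhx58 is at the top of both panels, with 2.50 in ko cells and 2.80 in wt cells.

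The RNA sensor genes Dhx58 and Ddx58 and the transcription factor genes Irf7, Irf9 and Stat2 rose with time in both genotypes. Dhx58 had 23.3, 24.2, 31.1 and 30.7 CPM at 72 h and 4.42, 5.45, 5.65 and 4.58 CPM at 48 h in ko cells. In wt cells it had 24.0, 24.7, 25.6 and 26.0 CPM at 72 h and 2.99, 4.40, 4.06 and 2.75 CPM at 48 h. The times were far apart in both, with log2 fold changes of 2.50 (SE 0.13, adjusted p = 2.25e-14) in ko cells and 2.80 (SE 0.14, adjusted p = 1.09e-14) in wt cells. In ko cells Irf7 rose by 1.34, Ddx58 by 1.25, Irf9 by 0.43 and Stat2 by 0.49 on the log2 scale. In wt cells Irf7 rose by 1.64, Ddx58 by 1.40, Irf9 by 0.69 and Stat2 by 0.97. Ifih1 rose in wt cells by 0.47 and stood at 0.25 in ko cells, where it did not pass.

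The antiviral effectors divided. In ko cells Oas3 rose by 0.98, Isg20 by 1.11, Ifi27l2a by 1.29 and Ifit1bl1, an IFIT family gene, by 1.93. In wt cells Oas3 rose by 1.36, Isg20 by 1.86, Ifi27l2a by 1.59 and Ifit1bl1 by 1.37. Mx1 rose in wt cells, with 4.08, 3.22, 4.46 and 4.61 CPM at 72 h and 1.88, 1.79, 1.47 and 1.68 CPM at 48 h (log2 fold change 1.24, SE 0.20). In ko cells Mx1 stood at 0.43 (SE 0.21, adjusted p = 0.0752), with 1.69, 1.38, 2.73 and 2.77 CPM at 72 h and 1.76, 1.67, 1.77 and 1.39 CPM at 48 h, which overlap; it passed without ko replicate 1 (0.0422) or 2 (0.0138) at 72 h. Xaf1 rose in wt cells by 1.38 and stood at 0.24 in ko cells. For neither gene did the difference between the genotypes pass its own test, the interaction above.

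Usp18, Bst2 and Ifi35 fell with time in both genotypes. For Usp18 the log2 fold changes were -0.87 in ko cells and -0.94 in wt cells, for Bst2 -0.43 in both, and for Ifi35 -0.70 in ko cells and -0.78 in wt cells. Oas1a (-1.02), Parp14 (-0.52) and Cmpk2 (-0.59) fell in ko cells and stood at -0.31, -0.23 and 0.17 in wt cells. Isg15 (-0.80) and Oasl1 (-0.87) fell in wt cells and stood at -0.44 and -0.25 in ko cells. Ifit1 rose in ko cells by 0.46 (adjusted p = 0.0277) and fell in wt cells by 0.49 (adjusted p = 0.0270), and the difference between these is its interaction. Isg15 in ko cells passed without replicate 4 of the 48 h group (adjusted p = 0.0120), and Rsad2, at 0.48, passed without replicate 2 of it (0.0181).

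Smaller changes with time depended on single libraries. In ko cells Ifit1 lost its call without replicate 1 or 4 at 48 h or 3 or 4 at 72 h (adjusted p = 0.0601 to 0.106), and Ifit3, at 0.79, without replicate 1 or 4 at either time (0.0522 to 0.0780). Trim30a, at 0.22, lost it without replicate 1 or 4 at 48 h or 3 or 4 at 72 h (0.0712 to 0.104), and Cmpk2 without replicate 2 or 3 at either time (0.0503 to 0.191). In wt cells Ifit1 lost its call without replicate 2 or 3 at 48 h or 3 at 72 h (0.0754 to 0.117), and Ifit2, at 0.32, without replicate 1 or 4 at 48 h or 4 at 72 h (0.0743 to 0.0801). Zbp1 rose by 0.67 in ko cells and by 0.37 in wt cells (adjusted p = 0.0498), the second of which held in 12 of 26 other settings. It ended without replicate 1, 2 or 3 of the ko group or 1, 3 or 4 of the wt group at 48 h, or without replicate 1 or 3 of the ko group or 2, 3 or 4 of the wt group at 72 h (0.0503 to 0.174). Parp14 in wt cells passed in 10 of 26 settings, among them the fits without ko replicate 1, 2 or 4 or wt replicate 4 at 48 h or without ko replicate 3 at 72 h (0.0245 to 0.0404). Trim30a in wt cells rose by 0.39, and Mx2, Oasl2 and Rtp4, at 1.16 CPM or less in every library, passed in no comparison.

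An order of libraries within a group recurred among part of the 29 genes. At 72 h, replicates 3 and 4 were both above replicates 1 and 2 for 12 of the 29 (41.4%) in ko cells and for 13 (44.8%) in wt cells, against 18.5% and 20.3% of all genes tested in the same libraries. At 48 h, replicates 2 and 3 were both above replicates 1 and 4 for 18 of the 29 genes (62.1%) in ko cells and for 19 (65.5%) in wt cells, against 14.2% and 18.7% of all genes. The mean log2 deviation from the group ran from -0.09 to 0.12 over the ko libraries and from -0.07 to 0.11 over the wt libraries at 72 h, and from -0.18 to 0.16 over the ko libraries and from -0.15 to 0.17 over the wt libraries at 48 h. This order was noticed in the values and has no test.

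The ligands of the pathway were close to absent. The 20 genes of type I and type III interferons held 132 reads over all 16 libraries together, 11 of them had no read in any library, and the highest count in 1 library was 23, of Ifnz. Ifnb1, the gene for interferon beta, had 12 reads, spread over 8 libraries, with 1, 0, 2 and 2 reads in ko cells and 0 in each of the 4 wt libraries at 72 h, and 1, 2, 0 and 0 reads in ko cells and 1, 2, 0 and 1 in wt cells at 48 h, too few to compare. Ifng, the gene for interferon gamma, the type II interferon of T cells, had 33.1, 34.3, 22.1 and 43.5 CPM in ko cells against 53.9, 57.6, 82.3 and 106 CPM in wt cells at 72 h, without overlap (log2 fold change -1.05, SE 0.22, adjusted p = 0.00251). At 48 h Ifng had 266, 188, 245 and 227 CPM in ko cells against 331, 325, 302 and 329 CPM in wt cells, also without overlap. Its log2 fold change there of -0.44 (SE 0.21) did not pass (adjusted p = 0.251), though it did with no filter (5.44e-08) and in a fit of only the 48 h groups (0.00876).

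Among 20 genes of interferon receptors and signalling, 3 rose and 4 fell in ko cells at 72 h, against 16.9% and 19.5% of all genes, with a median log2 fold change of -0.02. With library-size scaling 2 were higher and 9 lower, against 9.63% and 31.4% of all genes. The receptor chain gene Ifnar1 fell by 0.19 at 72 h, a call lost with exon length offsets (adjusted p = 0.182), while Ifnar2 stood at -0.01 and the transcription factor gene Irf1 at 0.05. Socs3, a suppressor of cytokine signalling, rose by 1.45 (SE 0.14), Ptpn2, a phosphatase of JAK and STAT proteins, by 0.48, and the interferon gamma receptor gene Ifngr1 by 0.26, which lost its call with library-size scaling (adjusted p = 0.114). Irf5 fell by 0.30 and Tyk2 by 0.20, and both lost the call without single libraries. Irf5 lost it without ko replicate 3 or wt replicate 1, 2 or 3 at 72 h (0.0521 to 0.0849). Tyk2 lost it without ko replicate 1 or 2 or wt replicate 3 (0.0840 to 0.113). At 48 h 2 of the 20 were higher and 0 lower, against 4.41% and 2.66% of all genes (median 0.02 over the 20), namely Ifngr1 at 0.33 and Socs3 at 0.49. At an unadjusted p under 0.05 there were 2 higher and 2 lower, a threshold at which all genes were not counted. DESeq2 gave 2 higher and 1 lower, against 794 and 851 of 13001 genes. Limma-voom gave 2 higher and 0 lower, against 607 and 468 of 15197. Socs3 lost its call without ko replicate 1, 2 or 4 or wt replicate 2 or 3 (0.0539 to 0.101).

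Among 13 tested genes of nucleic acid sensing, 2 rose and 6 fell in ko cells at 72 h, against 16.9% and 19.5% of all genes, with a median of -0.14. The largest falls were those of Adar, an RNA editing enzyme (-0.53), Eif2ak2, the kinase PKR (-0.42), and the kinase gene Ikbke (-0.34). Ikbke lost its call with exon length offsets (adjusted p = 0.0545). Samhd1, which breaks down deoxynucleotides, rose by 0.56, and the adaptor gene Ticam1 by 0.41, where Ticam1 lost its call with library-size scaling (adjusted p = 0.0722) and without wt replicate 3 (adjusted p = 0.0516). At 48 h 0 of the 13 passed in edgeR, against 7.07% of all genes. At an unadjusted p under 0.05, where all genes were not counted, 1 was lower, the adaptor gene Traf3 at -0.23. Traf3 passed with DESeq2 (adjusted p = 0.0338). With limma-voom 0 of the 13 passed, against 607 higher and 468 lower of 15197 genes. In edgeR Traf3 passed without ko replicate 4 at 48 h (0.0233) or ko replicate 3 at 72 h (0.0271).

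A further list of 53 tested interferon stimulated genes outside the 32 held 7 genes that rose and 14 that fell in ko cells at 72 h, against 16.9% and 19.5% of all genes, with a median of -0.18. Scaled by library totals it held 6 higher and 25 lower, against 9.63% and 31.4% of all genes. The rises were led by the Ifitm genes, whose products block the entry of enveloped viruses. Ifitm1 had 13.6, 11.8, 12.1 and 9.13 CPM in ko cells against 4.18, 3.73, 3.51 and 3.84 CPM in wt cells at 72 h, far apart (log2 fold change 1.74, SE 0.19, adjusted p = 2.39e-07). Ifitm3 rose by 0.95, Ifitm2 by 0.65 and Epsti1 by 0.56. The falls were led by Oas1g (-1.45, 0.576 CPM or less in every library and sharing sequence with Oas1a), the ubiquitin ligase genes Rnf213 (-0.66) and Trim30d (-0.65), and Uba7, the enzyme that activates ISG15 (-0.51). At 48 h 1 gene was higher, Plac8 at 0.45, and 1 lower, Slfn9 at -0.33, against 4.41% and 2.66% of all genes (median -0.02 over the list). Plac8 lost its call without ko replicate 1 or 2 or wt replicate 1 (adjusted p = 0.0564 to 0.0811), and Slfn9 without ko replicate 2 or 3 or wt replicate 1, 2 or 3 (0.0659 to 0.137). Without ko replicate 4 at 48 h 5 of the list were lower, against 896 of 15406 genes tested in that fit.

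**Figure D5:**
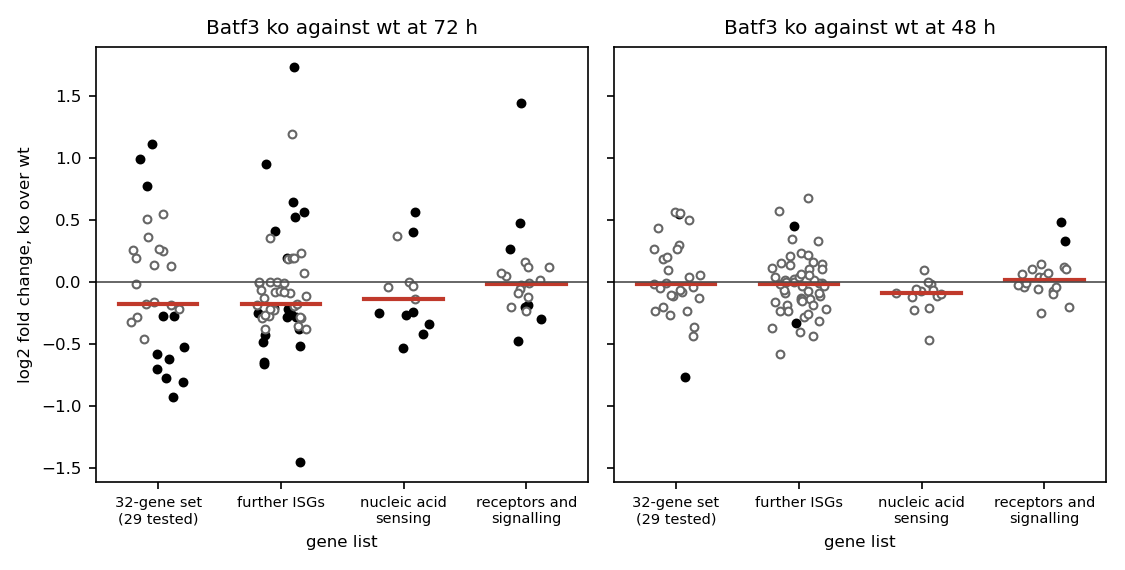
Log2 fold changes of ko over wt for the tested genes of 4 lists at 72 h (left) and 48 h (right); each point is a gene, filled where it passed the test at an adjusted p under 0.05, and red lines are medians. The medians at 72 h were -0.18 for the 29 tested of the 32 genes, -0.18 for the further interferon stimulated genes, -0.14 for sensing and -0.02 for receptors and signalling.

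Plasmacytoid dendritic cells, known as strong producers of interferon alpha, had 7 markers that summed to 21.6 to 22.8 CPM in ko cells and 20.2 to 27.3 CPM in wt cells at 72 h, and to 9.09 to 11.4 CPM in ko cells and 9.27 to 10.2 CPM in wt cells at 48 h. Their defining gene Siglech was at 0 in every library, and most of the sum was Pacsin1. Of these markers 3 were tested. At 72 h 2 were higher and 0 lower in ko cells, against 16.9% and 19.5% of all genes. Their log2 fold changes ran from -0.18 to 1.02. At 48 h 0 of the 3 passed, against 7.07% of all genes. The 8 conventional dendritic cell markers summed to 4.01 to 5.73 CPM in ko cells and 5.18 to 6.03 CPM in wt cells at 72 h, and to 3.62 to 5.08 CPM in ko cells and 3.58 to 4.41 CPM in wt cells at 48 h, with Clec9a and Cd209a at 0. B cell markers summed to 304 to 335 CPM in ko cells and 223 to 293 CPM in wt cells at 72 h, and to 284 to 318 CPM in ko cells and 246 to 257 CPM in wt cells at 48 h, nearly all of it Ighm, with the defining gene Ms4a1 at 0.0146 CPM in ko cells and 0.007004 CPM in wt cells on average at 72 h. CD4 T cell markers summed to 45.6 to 60.6 CPM in ko cells and 48.2 to 55.2 CPM in wt cells at 72 h, nearly all of it Zbtb7b. At 48 h they summed to 22.1 to 28.8 CPM in ko cells and 18.4 to 22.4 CPM in wt cells. Of the 2 tested, 1 was higher in ko cells at 48 h, against 4.41% of all genes. At 72 h 0 passed, against 36.4% of all genes in either direction. Of the 3 B cell markers tested 1 was higher and 0 lower in ko cells at each time. Of the 7 CD8 T cell markers 3 were higher and 0 lower at 72 h, and 2 higher and 0 lower at 48 h. The conventional dendritic cell markers tested, 3 in number, passed at neither time. Shares of all genes higher were 16.9% at 72 h and 4.41% at 48 h.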

How the data were processed

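The authors deposited raw read counts per gene as whole numbers, with no normalization. The submitters' processing notes name bcl2fastq 2.2.0, STAR 2.7 and featureCounts, with GRCm38 as the build. Libraries were stranded, per the labels' protocols. How the counting treated strand and reads with several matches, and which annotation it used, is not stated in the labels, so near-identical copies and overlapping genes are uncertain.

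CPM used each library's column sum. Positions and exon lengths came from GENCODE M21, which held 55154 of 55335 identifiers. The main model was edgeR 4.0.16 (R 4.3.3) on 16 libraries, with TMM factors, the filterByExpr rule (10 counts) and a robust two-sided quasi-likelihood F test. Benjamini-Hochberg adjustment ran over 15197 genes. Each standard error is the log2 fold change over the root of its F value. Scripts were checked on simulated counts. No libraries of a group agreed within sampling noise.

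The 32 genes, the other lists and the tests were chosen with earlier results of these data known. All 32 are named, with up to 4 of the largest rises and of the largest falls of each other list, and Ifnb1, Ifng, Ifnar1, Ifnar2 and Irf1; a few further genes under that rule are not reported here. Alternatives were other scalings and filters, DESeq2 1.42.0, limma-voom (limma 3.58.1), fits of only the groups compared, replicate blocks, exon length offsets and leaving out libraries. Blocks within each time were added after the data were seen.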

Additional observations from a re-analysis of the deposited data

Results flagged for a closer look

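Among 128 groups of 4 libraries looked at (32 genes in 4 groups), 3 held a library far from the other 3, where chance gives about 1 in 20 such groups. Irf9 had 17.89 CPM in replicate 4 of the ko group at 48 h, against 12.85 to 13.42 CPM in the others; this library also stood apart over all genes. Ifi35 had 37.86 CPM in replicate 3 of the ko group at 72 h, against 31.63 to 32.49 CPM in the others. Ifi44 had 0.1455 CPM, or 5 reads, in replicate 1 of the ko group at 72 h, against 0 in the others. The genotype effect on Ifit1 differed between the times, with a log2 difference of 0.9573 for 72 h minus 48 h (edgeR's quasi-likelihood test, adjusted p = 0.0329). No cause of these values was tested.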

How the results depend on the processing

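Of the genes called between ko and wt cells at 72 h, Ifit1, Ifit3, Usp18, Mx1, Oas3, Ifih1, Parp14 and Xaf1 passed in every alternative that could be run, as did Usp18 at 48 h; no called value changed direction. Leaving out 1 library gave 0 to 3 genes higher and 1 to 2 lower at 48 h, 2 to 4 higher and 6 to 10 lower at 72 h, and 0 to 1 higher and 0 to 1 lower for the genotype effect at 72 h against 48 h. Of the 15405 to 15455 genes tested in these fits 302 to 1059 were higher and 171 to 896 lower at 48 h. At 72 h 2101 to 2737 of them were higher and 2343 to 3192 lower. For the difference of genotype effects 158 to 407 were higher and 233 to 649 lower. With time, leaving out 1 library gave 10 to 14 higher and 5 to 7 lower in ko cells, and 13 to 15 higher and 5 to 7 lower in wt cells. Over all genes it gave 4954 to 5319 higher and 4891 to 5219 lower in ko cells. In wt cells it gave 4822 to 5249 higher and 4374 to 4780 lower over all genes. At 48 h, against 1 gene higher, there were 2 with DESeq2, 0 with limma-voom, 4 with no filter, 0 with only the groups compared and 3 without both libraries that stand apart, which also gave 2 lower. Of all genes 794 of 13001 were higher with DESeq2, 607 of 15197 with limma-voom and 970 of 27843 with no filter. With only the groups compared 698 of 14302 were higher. Without both libraries 1379 of 15345 were higher and 1171 lower, against 670 and 405 of 15197 in the main fit. Without both libraries there were 5 higher at 72 h and 0 higher for the difference of genotype effects, for which no filter gave 3 lower. Of all 15345 genes 2925 were higher at 72 h and 455 for the difference without both libraries. With no filter 699 of 27843 were lower for the difference. Same-numbered libraries were not taken as paired: over 24 pairs their deviations correlated at -0.601 to 0.298, and 2 of 16 libraries correlated best with their own number. These pairs include libraries of different times, and the -0.601 joined both libraries that stand apart. Between same-numbered ko and wt libraries of the same time the correlations ran from -0.133 to 0.204. The replicate block gave 8 genes lower at 72 h and 1 lower for the difference of genotype effects (Xaf1, -1.20, adjusted p = 0.0288). Over all 15197 genes it gave 2908 lower at 72 h and 429 lower for the difference. With a replicate block within each time there were 3 higher at 48 h, 6 higher and 10 lower at 72 h and 1 lower for that difference. Of all 15197 genes 653 were then higher at 48 h, 2601 higher and 2945 lower at 72 h and 441 lower for the difference. At 72 h Isg15 (0.0181), Dhx58 (0.0415) and Zbp1 (0.0364) joined the higher genes and Ifit2 (0.0255) the lower ones. The mean deviation over the 29 genes had the same sign in same-numbered ko and wt libraries at each time. The cause of these changes was not tested. DESeq2 gave no adjusted p for Oasl2, Rtp4 and Mx2 at 48 h or for the difference. The block within each time could not be fitted for comparisons between times. Of values that passed in neither fit 83 of 3802 changed sign. Genes under 3 counts in a library (0.0765 to 0.102 CPM), such as Ifi44 and Oas2, are limited by depth.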
